A study of Mus musculus with 40 samples.

Results

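The genes described here fill, empty and refill the calcium store of the endoplasmic reticulum (ER) in mouse developing oligodendrocytes, the glial cells that go on to make myelin. The set was chosen by name and holds 10 of the 39056 genes of the deposited count table: the calcium pumps Atp2a2 and Atp2a3, the release channels Itpr1, Itpr2 and Itpr3, the store sensors Stim1 and Stim2, and the entry channels Orai1, Orai2 and Orai3. All 10 were among the 15135 genes that passed the filter on low counts, but Atp2a3 passed it through the 4 libraries of 8 h thapsigargin, with 2 other libraries reaching the filter level, so its difference in that group is partly built into its being tested. By the reference annotation, Atp2a2, Stim2, Orai1 and Orai2 lie on chromosome 5, Itpr1 and Itpr2 on chromosome 6, Stim1 and Orai3 on chromosome 7, Atp2a3 on chromosome 11 and Itpr3 on chromosome 17.

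RNA was sequenced from wild-type C57BL/6 cells in 10 groups of 4 libraries. All groups share their preparation: oligodendrocyte progenitors were immunopanned from the cortices of pups aged 6 days (the age field reads 6 to 7 days and the tissue field whole brain), passaged, and left to differentiate for 12 to 14 h before plates were assigned to treatment. Untreated cells and cells given interferon-gamma (IFN-gamma), a T cell cytokine, at 200 U/ml were collected at 1, 8, 24 and 48 h, and cells given thapsigargin, labelled as 200 uM, at 1 and 8 h. These are cultured cells without neurons to myelinate, and the labels do not say whether the libraries of a group came from separate animals or cultures, so p-values here cover only how these libraries scatter, which may be technical.

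SERCA pumps use ATP to move calcium from the cytosol into the ER. Thapsigargin blocks these pumps, the store then drains through leak, and ER chaperones that need calcium fail, which starts the unfolded protein response. IP3 receptors, encoded by the Itpr genes, open the store when surface receptors activate phospholipase C. STIM proteins sense the falling store calcium and move to the plasma membrane, where they open ORAI channels and let the store refill. In oligodendrocyte precursors, calcium signals accompany migration, process growth and the start of myelination, and Itpr2 is used as a marker of cells that have begun to differentiate.

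The pump Atp2a2 is spliced into coding sequences that end differently, and the ends are shown because the isoforms are compared further on. Atp2a2-201 carries the longer coding sequence, that of the widely expressed SERCA2b protein, and Atp2a2-202 the shorter one of the SERCA2a protein known from heart and slow muscle. By the GENCODE M21 annotation (GRCm38) the coding sequences, stop codon included, are 3135 and 2997 bases long and are the same over their first 2983 bases. The last 30 shared bases are in lower case and the bases that each transcript has of its own are in capitals, the first 60 for Atp2a2-201 and all 14 up to the stop codon for Atp2a2-202.
Atp2a2-201: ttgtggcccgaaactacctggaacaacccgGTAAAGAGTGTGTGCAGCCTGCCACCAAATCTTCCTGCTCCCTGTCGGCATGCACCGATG
Atp2a2-202: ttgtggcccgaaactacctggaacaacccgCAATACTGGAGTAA

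The other sequences shown are the 250 bases before the start of Atp2a3, the gene with the largest fold change of the set, and of Orai1, the entry channel lower under both treatments. RefSeq promoters (GRCm38.p6) were at hand for 8 of the 10 genes, Atp2a2 and Itpr1 not among them. The Atp2a3 promoter is chr11:72960919-72961168 on the plus strand and the Orai1 promoter chr5:123014824-123015073 on the plus strand, and the capitals in the latter mark the single match to TTCNNNGAA (named GAS, the interferon-gamma activated site).
Atp2a3: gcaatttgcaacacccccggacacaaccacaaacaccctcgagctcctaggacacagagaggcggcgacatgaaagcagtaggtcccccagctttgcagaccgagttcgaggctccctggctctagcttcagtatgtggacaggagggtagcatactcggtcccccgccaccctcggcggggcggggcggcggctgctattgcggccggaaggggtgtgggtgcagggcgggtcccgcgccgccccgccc
Orai1: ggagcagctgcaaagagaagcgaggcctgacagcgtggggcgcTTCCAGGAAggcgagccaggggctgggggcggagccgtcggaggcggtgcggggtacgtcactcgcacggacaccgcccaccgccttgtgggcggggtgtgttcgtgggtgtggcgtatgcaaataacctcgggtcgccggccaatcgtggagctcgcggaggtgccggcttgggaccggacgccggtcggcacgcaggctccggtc

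Searched on both strands, TTCNNNGAA was found in the Orai1 promoter alone of the 8, 207 to 199 bases before the start, and in 7.02% of all 32851 promoters of this length. The ER stress element ERSE (CCAAT and CCACG, 9 bases apart) and the element TGATGNAAT, named CARE and bound by ATF4 and CHOP dimers, matched none of the 8 and were present in 0.113% and 0.816% of all promoters. The short motif CCACG, part of the ER stress element, matched in Stim2, Orai1, Orai2, Itpr2, Orai3 and Itpr3, but not in Atp2a3 or Stim1, against 28.3% of all promoters. Both shown sequences are rich in G and C, at 66.8% for Atp2a3 and 70.8% for Orai1. The 8 promoters ranged from 57.2% to 78.4%, against a median of 52.4% over all promoters. The motif shares of all promoters were not matched for this, so they give no fair rate for the 8. These matches describe the letters of a window and no binding was measured.

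The libraries held 13165483 to 22651092 reads on genes. Levels are given as CPM (read counts scaled to a common library total) on TMM-scaled library sizes, changes as log2 fold changes with their standard error (SE), and a gene was called at an adjusted p under 0.05. The treatments showed in their known targets: the ER chaperone gene Hspa5 had 9715 ± 404 CPM (SD, n = 4) in 8 h thapsigargin and 626 ± 46 in untreated cells, and the IFN-gamma target Irf1 had 1018 ± 31.7 CPM in 8 h IFN-gamma and 24.5 ± 1.3 in untreated cells. Oligodendrocyte lineage markers were present in every group, with the sum of 10 markers between 2744 CPM in 8 h thapsigargin and 11871 CPM at 48 h untreated. Among libraries of a group, untreated 48 h replicate 2 and IFN-gamma 48 h replicate 1 stood apart, with 2275 and 664 CPM over 5 later-stage markers (Enpp6, Cnp, Mbp, Mag and Mog) against 7148 to 8598 and 2212 to 3387 in the others. Summed Y-linked levels were under 50 CPM in 10 libraries, all treated, with 1 of 4 in each thapsigargin group and 2 of 4 in each IFN-gamma group.

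Per kilobase of exon, Atp2a2 was the most abundant of the set in untreated cells at 1 and 48 h and in 8 h thapsigargin. The least abundant was Atp2a3 in the untreated groups and Itpr3, at 0.0947 CPM, in 8 h thapsigargin. In untreated cells at 1 h, levels per kilobase of merged exon were 60.2 CPM for Atp2a2, 13.4 for Stim2, 11.2 for Orai1, 3.86 for Itpr2, 3.38 for Orai2, 2.99 for Stim1, 2.03 for Orai3, 2 for Itpr1, 0.173 for Itpr3 and 0.028 for Atp2a3. On this scale SERCA2 led the pumps, Stim2 the sensors and Orai1 the pores. The middle of this order depends on the length used: per kilobase of the longest transcript Stim1 had 7.11 CPM and came next after Orai1, before Orai2 at 5.15 and Itpr2 at 4.9. By 48 h untreated, Itpr2 had reached 48 CPM per kilobase of merged exon and stood next to Atp2a2 at 72.8.

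**Figure D1:**
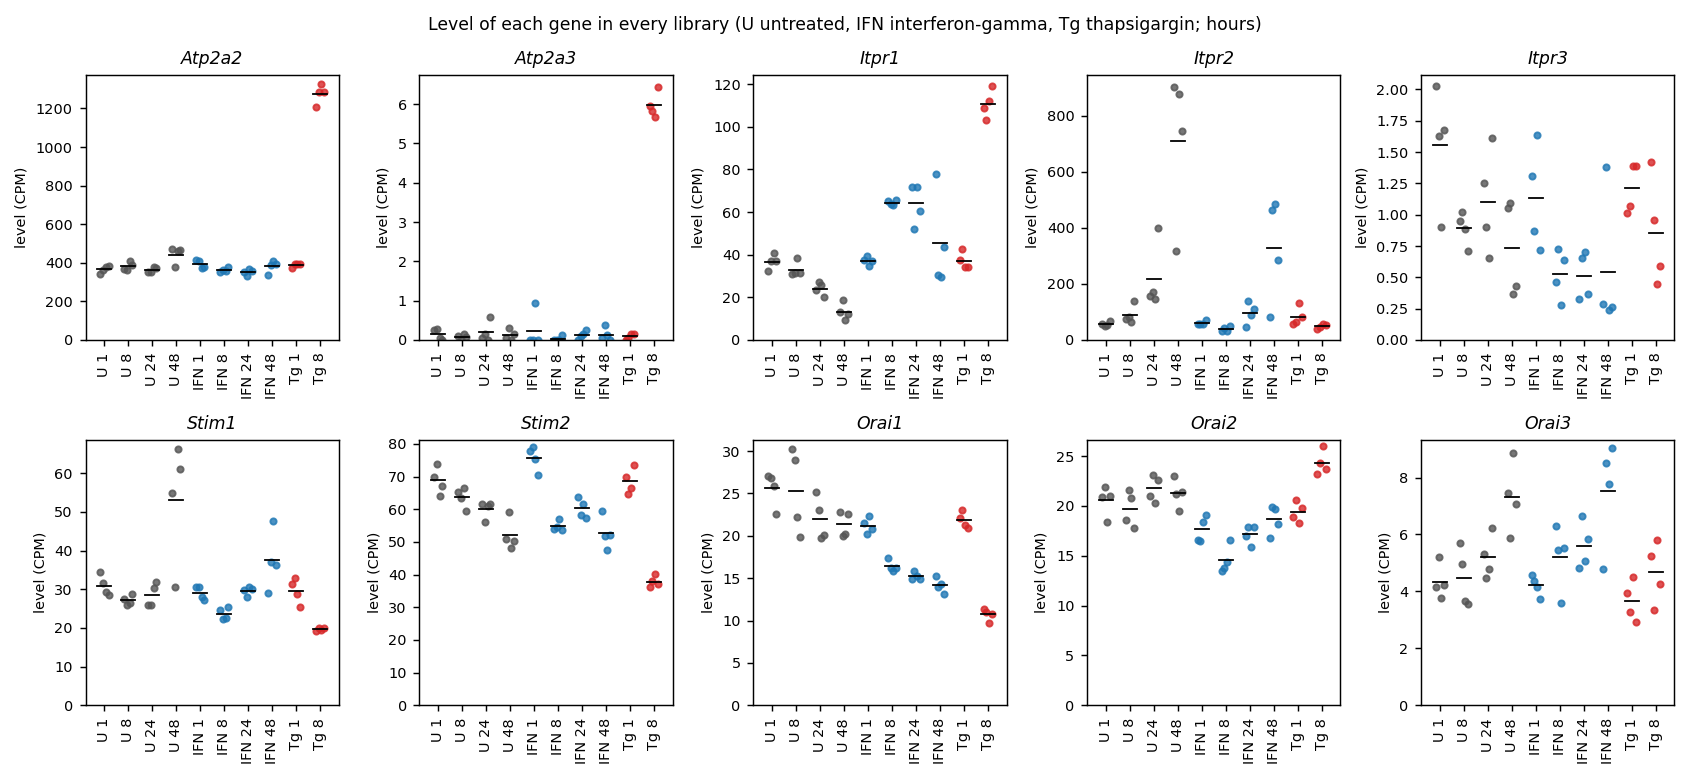
Level of each of the 10 genes (CPM, linear axis from 0) in every library, by group, with the group mean as a black line. The 4 libraries of 8 h thapsigargin are the highest for Atp2a2 (1209 to 1326 CPM), Atp2a3 (5.66 to 6.43 CPM) and Itpr1 (103 to 119 CPM). They are also narrowly the highest for Orai2, and the lowest for Stim1, Stim2 and Orai1. Itpr2 is highest at 48 h untreated.

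After 8 h of thapsigargin both pump genes and Itpr1 were higher, both sensors and Orai1 were lower, and Orai2 was slightly higher. Of the 10 genes 8 were called, 4 higher and 4 lower, beside 60.6% of all 15135 genes tested, so the count itself is near the background. The 4 higher genes include Atp2a3, which passed the filter through this same thapsigargin group. The median log2 fold change of the set was 0.00 and that of all genes was -0.01.

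Atp2a2, the SERCA2 pump that thapsigargin inhibits, had 1209, 1287, 1326 and 1287 CPM in the 8 h thapsigargin libraries and 368, 361, 407 and 388 CPM in untreated cells. The lowest treated library lay far above the highest library of any other group, 469 CPM at 48 h untreated. It rose 3.35-fold, or by 1.75 on the log2 scale (SE 0.06, adjusted p = 8.64e-23). The value stayed between 1.73 and 1.80 over 17 alternative settings.

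Atp2a3 encodes SERCA3, a pump of lower calcium affinity known from blood and epithelial cells. It had 118, 109, 88 and 98 reads in the 8 h thapsigargin libraries, or 5.96, 5.82, 5.66 and 6.43 CPM, and 2, 0, 2 and 1 reads in untreated cells. These groups did not overlap, and outside 8 h thapsigargin the highest library was IFN-gamma 1 h replicate 3 with 22 reads, 0.95 CPM. Atp2a3 passed the filter through the 8 h thapsigargin libraries, so the difference and its p-value are partly built into its being tested. Pooled over libraries, the 413 and 5 reads gave a ratio of 83.5 (exact 95% counting interval 35.5 to 259, covering counting error only), and the fitted log2 fold change was 6.24 (SE 0.82, adjusted p = 4.51e-08). Even so, at 1.13 CPM per kilobase of merged exon Atp2a3 remained far below Atp2a2 at 210.

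Among the release channels Itpr1 rose. Its libraries had 109, 103, 112 and 119 CPM under thapsigargin and 31, 31.6, 38.3 and 31.3 CPM in untreated cells, with no overlap. The log2 fold change was 1.75 (SE 0.19, adjusted p = 7.23e-10), and it stayed between 1.72 and 1.85 over 17 alternatives. Itpr2 had 40.7, 47.1, 55.7 and 53.5 CPM under thapsigargin and 73.9, 83.2, 65.8 and 138 CPM untreated. All treated libraries lay below all untreated ones, but the high untreated replicate 4 carries much of the difference: the log2 fold change was -0.87 (SE 0.38, adjusted p = 0.0478) and -0.57 (adjusted p = 0.239) without that library. The call was lost in 13 of 17 alternatives, DESeq2 among them (adjusted p = 0.0521), and without any 1 library of either group other than untreated replicate 3. Itpr3, whose receptor prevails in epithelial tissues, had 0.451 to 1.42 CPM under thapsigargin and 0.714 to 1.02 CPM untreated and was not called (log2 fold change -0.04, SE 0.43).

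The sensors were lower. Stim2, the sensor that answers to small losses of store calcium, had 36.2, 37.9, 40.2 and 37.2 CPM under thapsigargin and 65.3, 63.5, 66.5 and 59.5 CPM untreated. It fell by 0.75 on the log2 scale (SE 0.06, adjusted p = 2.68e-12). Stim1, the sensor that drives strong store-operated entry, had 19.1, 20.1, 19.6 and 19.9 CPM against 27.5, 26, 26.4 and 28.8. It fell by 0.47 (SE 0.14, adjusted p = 0.00479), and for both sensors the groups did not overlap. Stim1 lost its call with the lower 20 library numbers alone (adjusted p = 0.0588).

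The entry channels moved in different directions. Orai1, the main pore of store-operated entry, had 11.4, 11, 9.72 and 10.8 CPM under thapsigargin and 30.3, 28.9, 22.2 and 19.9 CPM untreated, and it fell by 1.24 (SE 0.10, adjusted p = 1.7e-13). The untreated libraries were split, 2 near 30 and 2 near 20 CPM, and all lay above the treated ones. Orai2, which can form mixed channels with Orai1 and lower their current, had 23.2, 24.3, 26 and 23.7 CPM against 18.6, 21.6, 20.8 and 17.8. It rose by 0.30 (SE 0.08, adjusted p = 0.00084) without overlap, and the call was lost with the lower 20 library numbers alone (adjusted p = 0.0885). Orai3 had 3.36 to 5.79 CPM against 3.57 to 5.71 and was not called (log2 fold change 0.04, SE 0.20).

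At 1 h of thapsigargin edgeR called 0 of the 10 genes, beside 8.79% of all genes tested, 1 had an unadjusted p under 0.05 and DESeq2 also called 0. That gene was Orai1, with 20.9 to 23.1 CPM treated and 22.6 to 27.1 untreated (log2 fold change -0.23, SE 0.09, adjusted p = 0.121). Atp2a2 had 371, 393, 393 and 393 CPM at 1 h against 340, 363, 379 and 382 untreated (0.08, SE 0.06). Atp2a3 had 7 reads in the treated and 13 in the untreated libraries, a ratio of 0.55 (exact 95% counting interval 0.186 to 1.48). At the same hour Hspa5 was already at 862 ± 98.3 CPM against 542 ± 26.6.

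The effect at 8 h was tested against that at 1 h, and 7 of the 10 genes differed, 4 higher and 3 lower, beside 47.4% of all genes. The 4 higher genes include Atp2a3, which passed the filter through the 8 h thapsigargin libraries. The difference was 1.66 for Atp2a2 (SE 0.09, adjusted p = 1.37e-17), 7.03 for Atp2a3 (SE 1.61, adjusted p = 0.000467) and 1.72 for Itpr1 (SE 0.26, adjusted p = 1.58e-06) on the log2 scale. Orai2 was also among the higher ones at 0.38. Orai1 at -1.01, Stim2 at -0.75 and Itpr2 at -1.42 made up the lower ones. For Stim1 the difference was -0.40 (SE 0.20, adjusted p = 0.096) and was not called. Fitted on the groups compared alone it was called (-0.39, adjusted p = 0.00594).

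Beside these values the sum of the 10 oligodendrocyte lineage markers was 2744 to 3149 CPM in 8 h thapsigargin and 6272 to 6793 CPM untreated. The markers did not move alike. Treated and untreated means were 1012 and 2648 CPM for Pdgfra, 312 and 1206 for Olig1, 348 and 816 for Olig2, and 194 and 636 for Cnp. Sox10 was at 343 and 589 CPM, but Cspg4 was at 634 in both. Mbp was at 39.7 and 53.7, Mag at 27.1 and 34.4, Enpp6 at 15.5 and 24.1, and Mog at 0.672 and 0.869. In bulk RNA, fewer cells of a type and less RNA per cell cannot be told apart. The sum of 6 neuron markers was 180 to 198 CPM against 63.5 to 77.1, with all 6 detected in both groups. Their means were 146 and 47.5 CPM for Tubb3, 26 and 6.12 for Snap25, 7.37 and 10.4 for Syt1, 7.32 and 5.34 for Nefl, 0.719 and 0.395 for Rbfox3, and 0.178 and 0.0236 for Stmn2. Astrocyte markers summed to 193 to 228 against 273 to 360 CPM, with means of 55 and 187 CPM for Aldoc but 139 and 112 for Slc1a3. Gfap was at 9.71 and 8.45 CPM, Aqp4 at 2.24 and 3.07, Aldh1l1 at 4.4 and 5.61, and Gja1 at 0.301 and 0.44. The 6 microglial markers summed to at most 2.83 CPM, with Itgam at 0 reads in the treated group. The part of other cells in the changes of Itpr1, a gene also abundant in neurons, was not tested.

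**Figure D2:**
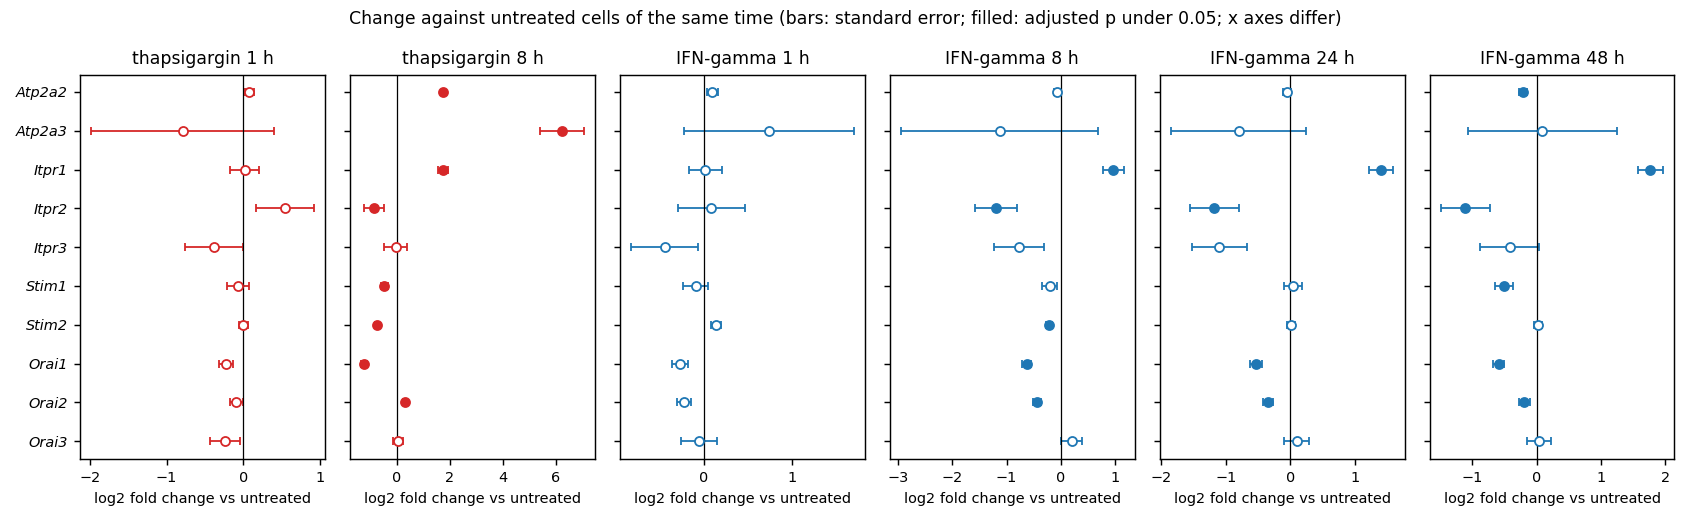
Log2 fold change of the 10 genes against untreated cells of the same time in 6 comparisons, with standard errors as bars and filled points where the adjusted p was under 0.05. The horizontal axes differ between panels. Atp2a3 at 8 h thapsigargin (6.24) is the largest change, and no gene is called at 1 h of either treatment.

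Estimated transcript levels showed that the Atp2a2 rise at 8 h was shared by its main transcripts. Atp2a2-201, with the SERCA2b end printed above, had 704 ± 53.7 CPM (SD, n = 4) under thapsigargin and 208 ± 15.3 untreated, a log2 change of 1.76 (SE 0.09, adjusted p = 4.22e-17). Atp2a2-202, with the SERCA2a end, had 123 ± 14.1 and 52.1 ± 6.05 CPM, a log2 change of 1.24 (SE 0.16, adjusted p = 3.21e-07). Its share of the gene's transcripts was 10.3 to 11.7% in the treated libraries and 13.9 to 16.8% in the untreated ones of 8 h, which do not overlap. Groups without thapsigargin also reached the treated range, with shares of 10 to 15.9% in untreated cells at 24 h and 10 to 14.7% in IFN-gamma cells at 8 h. Atp2a2-203, annotated as a target of nonsense-mediated decay and with the coding sequence of Atp2a2-201, had 277 ± 24.3 and 81.4 ± 1.73 CPM, and the division of reads between transcripts that share most of their sequence is an estimate.

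The share of all transcripts called at 8 h of thapsigargin was 21.3% of 58915. Of 7 Atp2a3 transcripts only Atp2a3-203 was tested, at 3.69 ± 0.437 CPM under thapsigargin, 64.8 to 84.7% of the gene. For Itpr1 the estimates were unsteady: Itpr1-205 had 67.2 ± 9.08 CPM under thapsigargin and 13.6 ± 7.75 untreated (log2 change 2.30, SE 0.76, adjusted p = 0.026). Itpr1-201 had 8.83 ± 10.7 and 10.6 ± 9.07 CPM and was not called. The main Orai1 transcript, Orai1-202, had 7.56 ± 1.15 against 21 ± 4.74 CPM and fell by 1.47 on the log2 scale (adjusted p = 5.8e-10). The 3 main Stim2 transcripts fell, Stim2-201 by 0.65, Stim2-204 by 1.18 and Stim2-203 by 0.78. For Orai2 the rise was in Orai2-201 (0.49, SE 0.14, adjusted p = 0.00767), while Orai2-202 was called lower (adjusted p = 0.0428) from an untreated estimate of 2.55 ± 3.91 CPM.

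**Figure D3:**
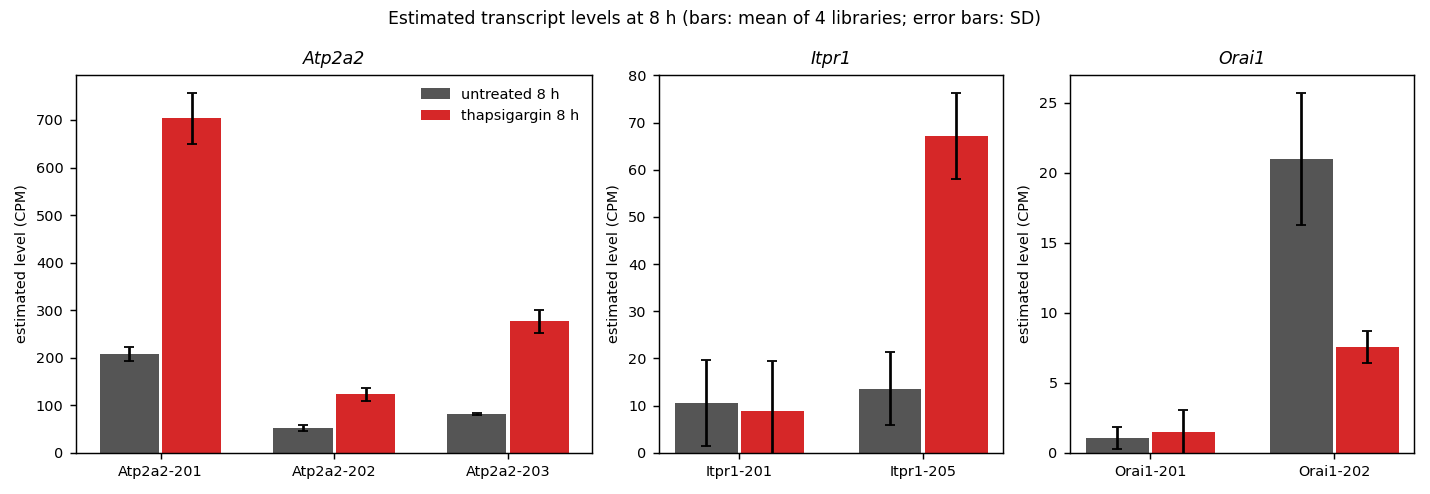
Estimated level (CPM, linear axis from 0) of the main Atp2a2, Itpr1 and Orai1 transcripts in untreated and thapsigargin cells at 8 h, as means of 4 libraries with the SD as error bars, which are cut off at 0. All 3 Atp2a2 transcripts are higher under thapsigargin, of the Itpr1 pair only Itpr1-205 stands clear of its spread, and Orai1-202 is lower.

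Neither pump was called higher at any time of IFN-gamma. At 1 h edgeR called 0 of the 10 genes beside 1.29% of all genes, 3 (Stim2, Orai1 and Orai2) had an unadjusted p under 0.05, and DESeq2 also called 0. From 8 h on, Itpr1 was higher and Itpr2 and Orai1 were lower than in untreated cells, with Orai2 lower by less. The counts were 5 of 10 at 8 h (1 higher, 4 lower) beside 25.2% of all genes, 4 at 24 h (1 higher, 3 lower) beside 23.1%, and 6 at 48 h (1 higher, 5 lower) beside 36.8%. These comparisons at 8 h use the same untreated libraries as those of thapsigargin, so the effects of both treatments are not independent.

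Itpr1 had 65.1, 63.8, 63.3 and 65.6 CPM at 8 h of IFN-gamma and 31, 31.6, 38.3 and 31.3 untreated. At 24 h it had 71.8, 51.9, 71.9 and 60.6 CPM against 23.4, 27.3, 25.6 and 20, and at 48 h 77.9, 30.7, 29.5 and 43.7 against 13.1, 18.6, 9.16 and 12.1. No treated library overlapped its untreated group at these times, and at 48 h replicate 1 was well above the other treated libraries. The log2 fold changes were 0.97 (SE 0.19, adjusted p = 0.000124), 1.41 (SE 0.19, adjusted p = 3.52e-07) and 1.77 (SE 0.20, adjusted p = 5.59e-09). All 3 calls held under each alternative run, and the 48 h value was 1.60 without the 2 libraries that stood apart. The mean level was not higher at 48 h than at 8 h of IFN-gamma, at 45.4 ± 22.5 and 64.5 ± 1.07 CPM. Untreated means were 13.2 ± 3.94 CPM at 48 h and 33 ± 3.52 at 8 h. Fitted between times, the effect was 0.80 larger at 48 h than at 8 h (SE 0.27, adjusted p = 0.0355), the only 1 of the 10 genes called there beside 17% of all genes. That call was lost with no filter on low counts and without IFN-gamma 48 h replicates 1 or 4, any IFN-gamma 8 h library, untreated 48 h replicates 1, 3 or 4, or untreated 8 h replicates 2 or 3.

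Itpr2 went the other way, with wide spread. It had 31.3, 43.1, 33.7 and 50.1 CPM at 8 h, 46.5, 138, 88.3 and 112 CPM at 24 h and 83, 462, 486 and 286 CPM at 48 h of IFN-gamma. Untreated cells had 73.9, 83.2, 65.8 and 138 CPM at 8 h, 156, 170, 145 and 398 at 24 h and 903, 316, 877 and 746 at 48 h, so the groups were apart at 8 and 24 h and overlapped at 48 h. The log2 fold changes were -1.19 (SE 0.39, adjusted p = 0.0199), -1.18 (SE 0.38, adjusted p = 0.0212) and -1.11 (SE 0.38, adjusted p = 0.0189). Each call was lost without the libraries low in Y-linked reads (adjusted p = 0.139, 0.229 and 0.11), and at 8 and 24 h also without untreated replicate 4 (-0.88 and -0.70), the library of both times with the most later-stage markers. Leaving out IFN-gamma replicates 1 or 3 also ended the calls at 8 and 24 h. At 48 h leaving out IFN-gamma replicate 1 gave -0.78 (adjusted p = 0.0918), leaving out IFN-gamma replicate 4 or untreated replicates 1 or 3 also ended the call, and leaving out both libraries that stood apart gave -1.03 (adjusted p = 0.0145).

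Orai1 fell at each of these times and with little spread. Its treated libraries had 17.4, 16.2, 15.8 and 16.2 CPM at 8 h, 14.9, 15.9, 15.3 and 14.9 at 24 h, and 15.2, 14, 14.3 and 13.1 at 48 h. Untreated cells had 19.9 to 30.3, 19.8 to 25.2 and 20 to 22.8 CPM, above every treated library of the same time. The log2 fold changes were -0.63 (SE 0.09, adjusted p = 1.4e-06), -0.53 (SE 0.09, adjusted p = 3.85e-05) and -0.59 (SE 0.09, adjusted p = 4.82e-06), and the calls held under each alternative run. At 1 h the value was -0.27 (SE 0.09, adjusted p = 0.184).

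Orai2 had 13.5, 13.8, 14.4 and 16.6 CPM at 8 h of IFN-gamma and 18.6, 21.6, 20.8 and 17.8 untreated. It fell by 0.44 at 8 h (SE 0.08, adjusted p = 2.51e-05) and by 0.34 at 24 h (SE 0.08, adjusted p = 0.000765). The 8 h call was lost with the upper 20 library numbers alone (adjusted p = 0.0833). Leaving out the libraries low in Y-linked reads ended the 24 h call (adjusted p = 0.0641). At 48 h the change was -0.19 (SE 0.08, adjusted p = 0.0451), a call lost in 13 of 18 alternatives, among them those without IFN-gamma replicates 1 or 4 or untreated replicates 1, 2 or 4. The direction under thapsigargin was the opposite, and the direct comparison of both treatments at 8 h is given further on.

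The sensors and the main pump were each called at a single time of IFN-gamma. Stim2 had 54, 54.5, 56.9 and 53.8 CPM at 8 h against 59.5 to 66.5 untreated and fell by 0.22 (SE 0.06, adjusted p = 0.00964), a call lost in 8 of 17 alternatives, among them those without IFN-gamma replicates 1 or 4 or untreated replicates 1 or 3. It was not called later. Stim1 was called at 48 h only, with 29, 37.1, 47.6 and 36.2 CPM against 54.8, 30.5, 66.3 and 61.2, which came to -0.50 on the log2 scale (SE 0.14, adjusted p = 0.00388). The groups overlap through untreated replicate 2, and without both libraries that stood apart the value was -0.59 (adjusted p = 8.3e-06). Fitted on the groups compared alone, the Stim1 call was lost (adjusted p = 0.176). Atp2a2 had 337, 390, 407 and 392 CPM at 48 h against 469, 376, 461 and 465, a change of -0.21 (SE 0.06, adjusted p = 0.00623), and it was not called at 8 or 24 h. That call was lost in 5 of 18 alternatives, among them without IFN-gamma replicate 1, the lowest library (highest adjusted p = 0.176).

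Atp2a3, Itpr3 and Orai3 were called at no time of IFN-gamma. Atp2a3 had at most 8 reads in any library from 8 h on. Itpr3 had 0.329 to 0.703 CPM at 24 h against 0.656 to 1.61, a change of -1.10 (SE 0.43, adjusted p = 0.0646), called without untreated 24 h replicate 3 (-1.27, adjusted p = 0.0398). At 48 h it was called without IFN-gamma replicate 2 (-1.50, adjusted p = 0.0148). For Orai3 the values from 8 to 48 h lay between 0.04 and 0.20 with SE of 0.19 to 0.20.

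Other markers moved with IFN-gamma as well. The 6 neuron markers summed to 298 to 353 CPM at 8 h and 152 to 218 at 48 h, against 63.5 to 77.1 and 73.9 to 88.1 untreated. All 6 were detected. At 8 h, treated and untreated means were 294 and 47.5 CPM for Tubb3, 22.8 and 10.4 for Syt1, 5.7 and 6.12 for Snap25, 5.82 and 5.34 for Nefl, 0.63 and 0.395 for Rbfox3, and 0.0446 and 0.0236 for Stmn2. At 48 h Tubb3 was at 152 and 65.3 CPM and Syt1 at 13.7 and 5.65, but Snap25 was at 4.27 and 4.28. Nefl was at 4.48 and 3.56 CPM, Rbfox3 at 0.941 and 0.505, and Stmn2 at 0.134 and 0.0958. Astrocyte markers summed to 412 to 458 CPM at 8 h against 273 to 360, with Gfap at 8.18 and 8.45 CPM and most of the difference in Slc1a3 (229 and 112 CPM). At 48 h Gfap was at 25.4 CPM treated and 48.6 untreated, Aqp4 at 10.7 and 24.1, Aldh1l1 at 9.14 and 14.3, and Gja1 at 0.713 and 1.41. Slc1a3 at 126 and 83.1 CPM and Aldoc at 241 and 197 went the other way. The sum of 6 was 374 to 429 against 303 to 403. The fibroblast sum reached 10 CPM at 48 h, mostly from Lum (8.08 CPM). Their part in the Itpr1 and Itpr2 results was not tested.

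Tested directly at 8 h, thapsigargin and IFN-gamma cells differed in 6 of the 10 genes, 4 higher and 2 lower under thapsigargin, beside 61.4% of all genes. The 4 higher genes include Atp2a3, which passed the filter through the 8 h thapsigargin libraries. Atp2a2 differed by 1.82 (SE 0.06, adjusted p = 1.81e-23), Atp2a3 by 7.38 (SE 0.93, adjusted p = 1.7e-08), Itpr1 by 0.78 (SE 0.18, adjusted p = 0.000396) and Orai2 by 0.74 (SE 0.08, adjusted p = 1.91e-10). Itpr1 was above untreated in both treatments and higher under thapsigargin. Lower under thapsigargin were Orai1 at -0.61 (SE 0.10, adjusted p = 1.46e-06) and Stim2 at -0.53 (SE 0.06, adjusted p = 6.93e-09). Itpr2 (0.32, SE 0.38) and Stim1 (-0.27, SE 0.14) were not called, but both were when fitted on the groups compared alone (adjusted p = 0.0487 and 0.0053). At 1 h the treatments differed in 0 of the 10 genes by edgeR and by DESeq2, with 1 (Stim2) at an unadjusted p under 0.05, beside 6.09% of all genes.

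Without treatment the set changed with time in differentiation medium, Itpr2 most. At 8 h against 1 h 0 of the 10 genes were called by edgeR or DESeq2, none had an unadjusted p under 0.05, and the share of all genes was 6.93%. At 24 h 3 were called (1 higher, 2 lower) beside 28.3%, and at 48 h 8 were called (4 higher, 4 lower) beside 62.3% of all genes, again near the background. The 4 higher genes at 48 h were Itpr2, Stim1, Orai3 and Atp2a2, and the 4 lower ones Itpr1, Itpr3, Stim2 and Orai1.

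Itpr2 had 58.6, 49.9, 54.2 and 66.1 CPM at 1 h, and its 48 h libraries had 903, 316, 877 and 746. The rise was 12.4-fold, a log2 change of 3.63 (SE 0.41, adjusted p = 6.88e-09), and at 24 h it was 1.93 (SE 0.39, adjusted p = 0.000603). The 24 h call of Itpr2 was lost with the lower 20 library numbers alone (adjusted p = 0.17). Both of its main transcripts rose by 48 h, Itpr2-202 by 3.60 and Itpr2-201 by 3.82, with 20% of all transcripts called in that comparison. Itpr1 had 32.3, 36.9, 40.6 and 37.1 CPM at 1 h and 13.1, 18.6, 9.16 and 12.1 at 48 h. It fell by 1.46 on the log2 scale (SE 0.20, adjusted p = 1.13e-07) with no overlap. Its change at 24 h was -0.61 (SE 0.19, adjusted p = 0.0163), not called without untreated 1 h replicate 3 or 24 h replicate 4. The gap between these release channels thus widened: per kilobase of merged exon Itpr2 went from 3.86 CPM at 1 h to 48 at 48 h, and Itpr1 from 2 to 0.723. Other markers moved over the same time, with the astrocyte genes Gfap at 5.77 CPM at 1 h and 48.6 at 48 h, Aqp4 at 2.16 and 24.1, Aldh1l1 at 4.9 and 14.3, and Gja1 at 0.341 and 1.41. The sum of all 6 astrocyte markers was 272 to 332 CPM at 1 h and 303 to 403 at 48 h, with Slc1a3 at 117 and 83.1 and Aldoc at 174 and 197. The part of astrocytes in the changes with time was not tested.

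Stim1 had 34.6, 31.7, 29.2 and 28.4 CPM at 1 h and 54.8, 30.5, 66.3 and 61.2 at 48 h, and it rose by 0.77 (SE 0.14, adjusted p = 1.04e-05). Untreated 48 h replicate 2 was level with the 1 h libraries, and without both libraries that stood apart the change was 1.00. Stim2 had 70, 74, 64 and 67.2 CPM at 1 h and 51, 59.1, 48.1 and 50.2 at 48 h, and fell by 0.40 (SE 0.06, adjusted p = 1.77e-06) without overlap. At 24 h its change was -0.20 (SE 0.06, adjusted p = 0.0199), a call lost in 9 of 17 alternatives, among them without untreated 1 h replicates 1 or 2 or 24 h replicates 2, 3 or 4. Orai3 had 4.15, 5.21, 3.78 and 4.21 CPM at 1 h and 7.44, 5.88, 8.85 and 7.07 at 48 h, and rose by 0.74 (SE 0.19, adjusted p = 0.00103). Smaller changes were those of Atp2a2 at 0.27 (adjusted p = 0.000262) and Orai1 at -0.26 (adjusted p = 0.0132), the latter not called without the libraries that stood apart (adjusted p = 0.0637) or without untreated 1 h replicates 1 or 2 or 48 h replicates 2 or 3. Itpr3 went from 0.901 to 2.03 CPM to 0.369 to 1.09 CPM, a change of -1.04 (SE 0.41, adjusted p = 0.0255) that was lost in 7 of 18 alternatives, among them without untreated 1 h replicates 1, 2 or 4 or 48 h replicates 3 or 4. With the lower 20 library numbers alone, the 48 h calls of Stim1, Orai3 and Atp2a2 were also lost (adjusted p = 0.173, 0.173 and 0.0644).

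Some groups had a library far from the others in later-stage markers. In the groups given next, that library was also the highest or lowest in Itpr2. Within untreated 48 h, replicate 2 had 2275 CPM of the 5 later-stage markers, 316 CPM of Itpr2 and 30.5 of Stim1, and the other 3 had 7148 to 8598, 746 to 903 and 54.8 to 66.3. Within IFN-gamma 48 h, replicate 1 had 664 CPM of those markers, 83 of Itpr2 and 29 of Stim1, and also the most Itpr1, 77.9. Within untreated 24 h, replicate 4 had 2755 CPM of the markers and 398 of Itpr2, against 1187 to 1286 and 145 to 170. Within untreated 8 h, replicate 4 had 1001 CPM of the markers and 138 of Itpr2, against 612 to 698 and 65.8 to 83.2. Within thapsigargin 1 h, replicate 3 had 988 CPM of the markers and 131 of Itpr2, against 516 to 661 and 58.7 to 80.3. These groups were picked for such a library, so they give no test of a link. Within IFN-gamma 24 h, replicate 4 had the most of the markers, 1074 CPM, but replicate 2 had the most Itpr2, 138 CPM. For Stim1 the order also differed: at 1 h untreated, replicate 4 had the most of the markers, 719 CPM, and the least Stim1, 28.4. The part of cell stage in the Itpr2, Itpr1 and Stim1 results was not tested.

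**Figure D4:**
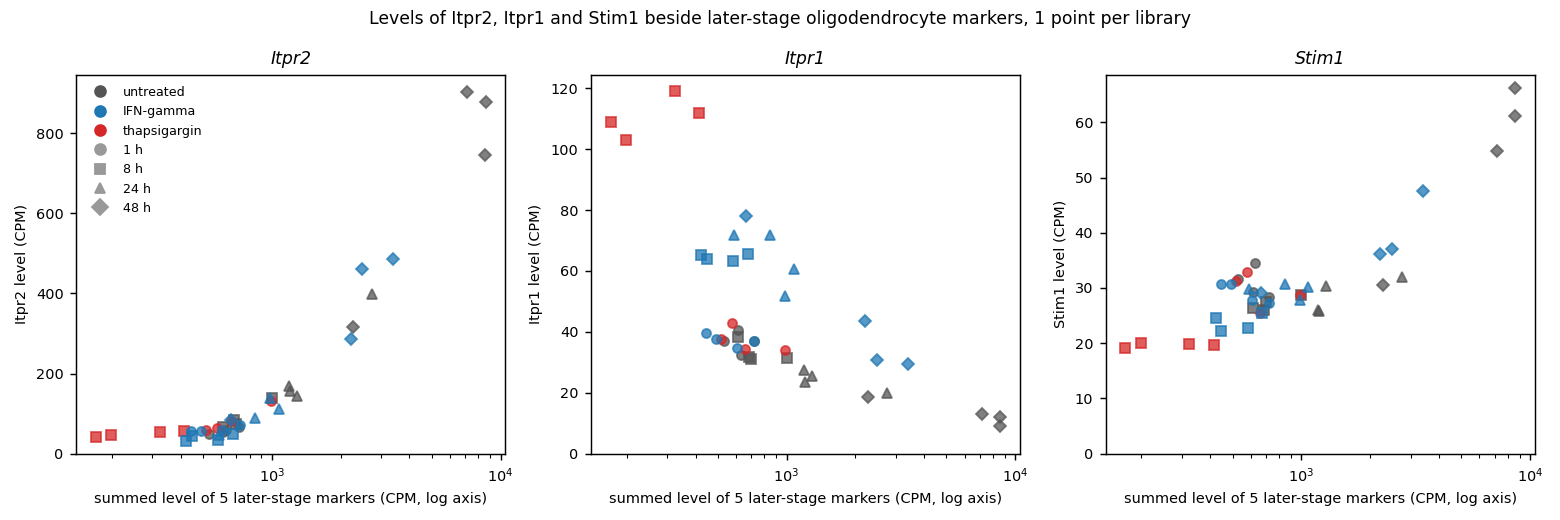
Level of Itpr2, Itpr1 and Stim1 (CPM, linear axis from 0) against the summed level of 5 later-stage oligodendrocyte markers (CPM, log axis), with 1 point per library, color for treatment and shape for time. Itpr2 and Stim1 are highest in the 3 untreated 48 h libraries with the most marker RNA, and Itpr1 is highest in the 4 thapsigargin libraries of 8 h (103 to 119 CPM), where the marker sum is 170 to 414 CPM.

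Genes around this set were read from 9 lists of calcium handling with 141 genes, of which 127 were tested. All lists were chosen with earlier results of these data known. Their shares of called genes are therefore no test against the shares of all genes. At 8 h of thapsigargin 59 were higher and 28 lower, 68.5% of the lists beside 60.6% of all genes. ER proteins that bind calcium moved together in direction: of 17 tested, 15 were higher and 0 lower, with a median log2 fold change of 2.09 beside -0.01 over all genes. The chaperones Hspa5 (3.96, SE 0.07) and Hsp90b1 (3.32, SE 0.08), the disulfide isomerase Pdia4 (3.56, SE 0.06) and Creld2 (4.89, SE 0.11) had the smallest adjusted p. They include many known ER stress genes, and the list was written with that response in these cells known.

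The other store release and leak channels had 8 higher and 3 lower of 13 at 8 h of thapsigargin, with a median of 0.46. Over all genes 60.6% were called in this comparison, the background for this count and the next. Sec61a1, the translocon subunit through which calcium can leak, went from 291 to 1050 CPM (log2 fold change 1.85, SE 0.06), and the ryanodine receptor Ryr2 from 2.59 to 15.5 CPM (2.59, SE 0.25). Among 17 genes of IP3 receptor control and IP3 turnover 8 were higher and 5 lower. These included the phospholipase Plcb1 (1.22, SE 0.06), which makes IP3, and the phosphatase Inpp5b (1.09, SE 0.06). A maker and a remover of IP3 were therefore among the genes that rose, while 5 genes of the list fell.

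Regulators of store-operated entry were split, 4 higher and 4 lower of 12. The 60.6% of all genes called in this comparison is the background for each count in this paragraph. Saraf, which turns STIM-driven entry off, rose from 129 to 418 CPM (1.69, SE 0.08), the membrane tether Esyt1 from 12.7 to 81.2 CPM (2.67, SE 0.10) and the channel Trpc1 from 11.3 to 34.4 CPM (1.60, SE 0.07). The scaffold Homer3 fell by 1.32 (SE 0.12). Of the proteins that export calcium from the cytosol, 2 of 10 were higher and 3 lower, with the plasma membrane pump Atp2b1 at 421 against 123 CPM (1.78, SE 0.06) and the exchangers Slc8a1 and Slc8a2 at -0.86 and -0.79. S100a1, a small calcium-binding protein that acts on SERCA, fell by 1.68 (SE 0.32) from 7.14 to 2.24 CPM, and it was 1 of 2 lower among the 3 tested SERCA regulators. Mitochondrial calcium genes had 6 higher and 3 lower of 15, with the uniporter pore Mcu at 0.86 (SE 0.08), voltage-gated and receptor channels 7 and 2 of 20, and the calcineurin, calmodulin and NFAT list 9 and 6 of 20, in which the calcineurin regulator Rcan2 rose by 2.57 (SE 0.15) and the calmodulin gene Calm3 fell by 1.08 (SE 0.05).

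At 1 h of thapsigargin 10 of the 127 were higher and 4 lower, 11% of the lists beside 8.79% of all genes. The 6 called ER calcium-binding genes were all higher, Hspa5 at 0.67 (SE 0.07) among them, and Trpc1 was at 0.53 (SE 0.07). The IP3 kinase Itpkc, which removes IP3, was higher by 0.43 (SE 0.08) and by 0.84 (SE 0.08) at 8 h. At 1 h of IFN-gamma 0 of the 127 were called by edgeR or DESeq2, and 9 had an unadjusted p under 0.05.

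Under IFN-gamma 25 of the 127 were higher and 24 lower at 8 h, 38.6% of the lists beside 25.2% of all genes. At 24 h 24 were higher and 18 lower (33.1% beside 23.1%), and at 48 h 28 and 38 (52% beside 36.8%). Since the lists were chosen with earlier results of these data known, these higher shares do not show that calcium genes respond more often. The ER calcium-binding list had 4 higher and 1 lower of 17 at 8 h, led by Rcn1, from 142 to 322 CPM (1.18, SE 0.07). Cacnb2, a channel subunit, went from 0.725 to 31.8 CPM (5.44, SE 0.32), and Mcub, a subunit that damps the mitochondrial uniporter, from 3.15 to 18.4 CPM (2.50, SE 0.20). The calmodulin kinases Camk4 (2.99, SE 0.19) and Camk2d (1.67, SE 0.07) were higher, as were Plcb1 (0.98, SE 0.06) and the inositol phosphate phosphatase Inpp1 (0.82, SE 0.06). At 48 h the regulators of store-operated entry had 1 higher and 7 lower of 12, where 3016 of all 15135 genes were lower. Without treatment the exchanger Slc24a2 rose from 2.86 CPM at 1 h to 72.6 CPM at 48 h (4.67, SE 0.50), and it was at 11.6 CPM under IFN-gamma at 48 h (-2.65, SE 0.44).

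**Figure D5:**
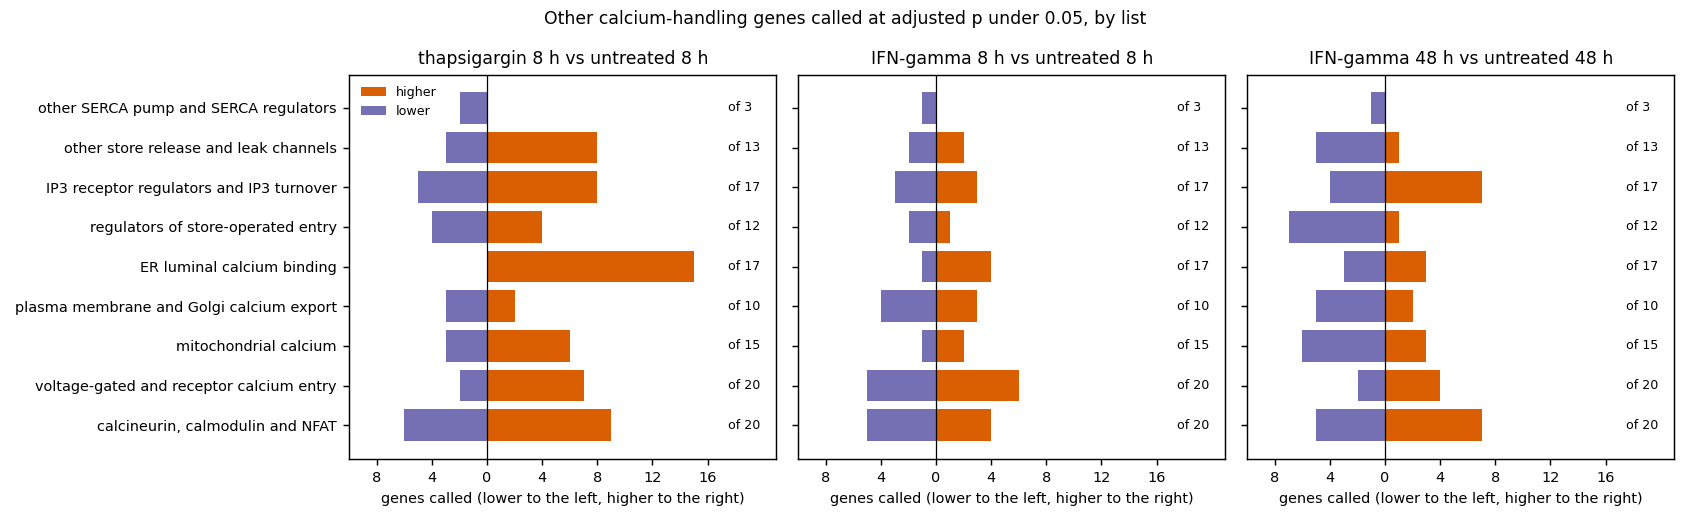
Number of genes called higher (right of 0) and lower (left of 0) in 9 lists of other calcium-handling genes, for 8 h thapsigargin, 8 h IFN-gamma and 48 h IFN-gamma against untreated cells, with the number tested at the right. The ER luminal list has 15 higher and 0 lower of 17 under thapsigargin, and the regulators of store-operated entry have 1 higher and 7 lower of 12 at 48 h of IFN-gamma, comparisons in which 60.6% and 36.8% of all genes were called.

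The genes whose levels over the 10 group means were most like Atp2a2, out of 10123 searched, were Arcn1, Txndc11 and Serp1 (Pearson r = 0.997 each) and Canx and Calu (0.995 each). These means share their libraries and 1 group, 8 h thapsigargin, stands far from the rest, so r describes little beyond that group. Serp1 went from 214 to 1283 CPM between untreated and thapsigargin cells at 8 h and the chaperone gene Canx from 914 to 2059. For Atp2a3 the nearest were Phf10 (0.997) and Lman1 (0.996), for Itpr1 Fat3 (0.984) and Etv1 (0.979), and for Itpr2 Lrch3 (0.993) and Phactr3 (0.992). Stim1 was most like Ado (0.968), Stim2 most like Apoo (0.992), Orai1 most like Daglb (0.984) and Orai2 most like Fzd1 (0.957).

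The order of the groups differed by gene. For Atp2a2 the other 9 groups ran from 352 ± 16.2 CPM (24 h IFN-gamma) to 443 ± 44.4 (48 h untreated), each overlapping the next, below 1277 ± 49.1 at 8 h thapsigargin. For Itpr1 the order from the lowest was untreated 48, 24 and 8 h (13.2 ± 3.94, 24.1 ± 3.16 and 33 ± 3.52 CPM), the 3 groups of 1 h (36.7 to 37.2), IFN-gamma at 48, 24 and 8 h (45.4 ± 22.5, 64 ± 9.69 and 64.5 ± 1.07) and thapsigargin at 8 h (111 ± 6.38). Neighbours overlapped from untreated 8 h up to IFN-gamma at 8 h. For Itpr2 the order ran from 39.5 ± 8.68 CPM at 8 h IFN-gamma to 710 ± 272 at 48 h untreated, and the only gap without overlap was between 24 h IFN-gamma (96.2 ± 38.8) and 24 h untreated (217 ± 121). By the annotation the exons of Atp2a2, Itpr1, Itpr3 and Orai1 overlap antisense or unclassified genes on the other strand by 0.305 to 2.58% of their length, and without known use of strand such reads cannot be told apart.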

How the data were processed

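Total RNA from 40 libraries, 10 groups of 4, was sequenced on an Illumina HiSeq. The authors deposited a table of raw read counts per gene and a table of estimated counts per transcript, which need not be whole. The submitters' processing notes name STAR, featureCounts, kallisto and edgeR. For versions, roles, genome build, annotation and use of strand: not given in the sources used here. Identifiers were matched without their version to GENCODE M21, and 38872 of 39056 genes matched a symbol.

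Genes were filtered with filterByExpr and tested with edgeR 4.0.16 (R 4.3.3, limma 3.58.1) by the quasi-likelihood test on TMM sizes, in 1 fit over 40 libraries with 30 residual degrees of freedom, with Benjamini-Hochberg adjustment over 15135 genes. Fitted fold changes used a prior count of 0.125, and each SE was taken as the log2 change over the square root of F. Estimated counts were rounded and fitted alike over 58915 transcripts. The fit was tested on simulated data. Depth was 13165483 to 22651092 reads, and the counting interval is exact at 95%. Replicate numbers follow accession order and pair nothing.

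The 10 genes and all lists were chosen with earlier results of these data known. Named genes were the 10, up to 4 called genes per list and comparison in order of adjusted p, the checks of treatment, and the genes most like each of the 10 over group means (mean log2 CPM 3 or more). Alternatives were DESeq2 1.42.0, RLE size factors, no filter on low counts, fits on the groups compared alone, a block for the range of library numbers, each range of 20 numbers alone, the transcript table summed per gene, leaving out libraries low in Y-linked reads, and leaving out each library. Leaving out both libraries that stood apart at 48 h was chosen after seeing the data. A marker of the oligodendrocyte lineage list and a gene of the calcium lists are not reported here by name, and the marker sums leave the former out.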

Additional observations from a re-analysis of the deposited data

Results flagged for a closer look

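A lone library stood off from the other 3 of its group in 9 of 100 combinations of gene and group. Chance gives about 1 in 20 for independent values with normal scatter. These combinations share their libraries, and a lone library with reads beside 0 reads in the others is always flagged, so the count cannot be set against that rate. For Atp2a2 these were untreated 48 h replicate 2 at 376 CPM (the others 461 to 469) and thapsigargin 1 h replicate 1 at 371 CPM (the others 393). For Atp2a3 they were IFN-gamma 1 h replicate 3 at 0.95 CPM and IFN-gamma 8 h replicate 4 at 0.128 CPM, with 0 reads in the other 3 of each group. Itpr1 had 38.3 CPM in untreated 8 h replicate 3 against 31 to 31.6. Itpr2 had 398 CPM in untreated 24 h replicate 4 against 145 to 170, and 71.2 CPM in IFN-gamma 1 h replicate 4 against 57 to 57.7. Itpr3 had 1.38 CPM in IFN-gamma 48 h replicate 2 against 0.241 to 0.287, and Stim2 had 56.2 CPM in untreated 24 h replicate 2 against 61 to 61.6.

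The effect of thapsigargin differed between 8 h and 1 h, by edgeR's test of the difference itself, in Atp2a2 (1.66 on the log2 scale), Atp2a3 (7.03), Itpr1 (1.72), Itpr2 (-1.42), Stim2 (-0.75), Orai1 (-1.01) and Orai2 (0.38). Atp2a3 passed the filter through the 8 h thapsigargin libraries, so its difference is partly built into its being tested. The effect of IFN-gamma differed between 48 h and 8 h in Itpr1 (0.80).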

How the results depend on the processing

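The 34 calls of the 10 genes in comparisons with an untreated group gave 592 alternative values in all, with differences between times and direct comparisons of both treatments not among them. The call held in 495 of these, was lost in the same direction in 97 and was reversed in 0, and 14 of the 34 results held under every alternative run. No paired analysis was possible because the replicate numbers follow accession order. Counts of the 10 genes called moved as follows, and the cause was not tested. Some of these settings have fewer libraries, but the summed transcript table and the fit with no filter leave none out. With the lower 20 library numbers alone, the count was 5 (from 8) at 8 h thapsigargin, 2 (from 6) at 48 h IFN-gamma, 0 (from 3) at 24 h untreated, 4 (from 8) at 48 h untreated and 0 (from 1) for the difference of IFN-gamma effects between 48 and 8 h. With the upper 20 alone it was 2 (from 5) at 8 h IFN-gamma. Without the libraries low in Y-linked reads it was 3 at 8 h, 2 (from 4) at 24 h and 3 at 48 h of IFN-gamma, and 0 for the difference. Fitted on the groups compared alone it was 2 at 48 h IFN-gamma, 0 for the difference and 1 (from 0) at 8 h untreated, where Itpr2 was called. The transcript table summed per gene gave 1 at 24 h untreated and 0 for the difference, and no filter gave 0 for the difference. Leaving out both libraries that stood apart at 48 h, chosen after seeing the data, gave 3 for the difference. Leaving out each library in turn gave 3 to 5 at 8 h IFN-gamma (3 without IFN-gamma 8 h replicate 1), 3 to 7 at 48 h IFN-gamma (3 without IFN-gamma 48 h replicate 1), 1 to 4 at 24 h untreated (1 without replicate 4 of 24 h) and 0 to 4 for the difference (4 without untreated 48 h replicate 2). Atp2a3 and Itpr3 have few reads, so changes in them are limited by depth in most groups.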
